A study of Rattus norvegicus with 6 samples.

Results

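Small leucine-rich proteoglycans (SLRPs) are secreted proteins whose core is a row of leucine-rich repeats. Many carry chondroitin, dermatan or keratan sulfate chains. They bind collagen fibrils, set the width and spacing of the fibrils as these assemble, and hold growth factors such as TGF-β in the matrix. In the arterial wall they are made by VSM cells and by fibroblasts of the adventitia. The family was taken as 10 genes by symbol, and 9 of the 10 were among the 14475 genes counted. Podn (podocan) had no row and was not analysed here. The 9 genes were Dcn (decorin), Bgn (biglycan), Aspn (asporin) and Ecm2 (extracellular matrix protein 2) of class I, Lum (lumican), Fmod (fibromodulin), Prelp and Omd (osteomodulin) of class II, and Ogn (osteoglycin, also called mimecan) of class III.

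VSM cells were grown from soleus feed arteries (SFA) of male Fischer 344 rats, with cells of 3 young rats aged 4 months and of 3 old rats aged 24 months. The cells were grown in a DMEM/F-12 medium with serum before their polyadenylated RNA was made into stranded libraries, 1 library per rat. The values describe cells after growth in culture, and no source used here states the number of passages.

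Total gene counts ranged from 44235674 to 59700887 per library. Values are CPM, counts scaled to a common library size after TMM normalization, which corrects each library for differences in RNA composition, and log2 fold changes are old over young. Each gene was tested with edgeR's quasi-likelihood test across all genes, and a gene was called where its adjusted p was under 0.05 and its log2 fold change was 1 or more in either direction. The DESeq2 Wald test, which is the test named in the study's methods, was run on the same counts with the same thresholds. Spearman's rho between libraries of a group was lowest for old replicate 1 with old replicate 3, at 0.963. Without old replicate 1, edgeR called 2 SLRPs higher in old (Aspn and Ecm2, background 1.58%) and 0 lower (background 3.47%). Without old replicate 3, the other library of this pair, it called 0 higher (background 0%). It also called 0 higher with any other library left out (background 0% to 0.00691%).

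Most SLRPs had higher values in aged VSM cells. In old cultures 8 of the 9 genes had a positive log2 fold change, compared with 52% of all genes (48% were not above 0), and 6 of the 9 had a log2 fold change of at least 1, compared with 5.07% of all genes. Their median log2 fold change was 2.02, while the median of all genes was 0.02. Without old replicate 3 the median of the SLRPs was 1.09. No SLRP was called by edgeR (0 of 9 in either direction, background 0% higher and 0.00691% lower), with 4 of the 9 at an unadjusted p under 0.05 and higher in old (background 11.2%). limma-voom called 0 as well (background 0% in either direction), with 6 higher in old at an unadjusted p under 0.05 (background 10.5%). The DESeq2 Wald test called 4 of the 9, Dcn, Aspn, Ecm2 and Ogn, all of them higher in old (background 2.3%). In 5 of the 9 genes the 3 old libraries all lay above the 3 young libraries (background 14.5%), in 0 they all lay below (background 14.7%), and in the other 4 the groups overlapped.

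**Figure D1:**
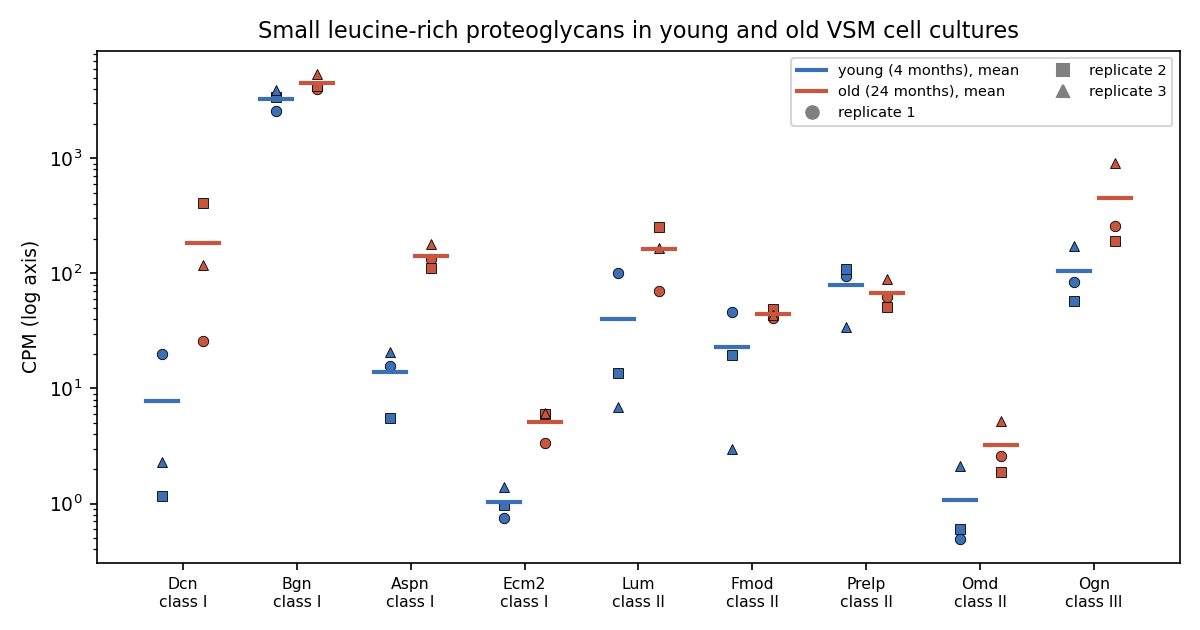
CPM of each SLRP (log axis) in the 6 cultures, with blue for young, red for old, bars for the means and the marker shape for the replicate number. The old points of Dcn, Bgn, Aspn, Ecm2 and Ogn all lie above the young points, and the spread within an age group is widest for Dcn, from 1.16 to 19.9 CPM in young and from 25.99 to 411 CPM in old.

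Among class I genes, Aspn had the clearest separation between age groups. Asporin binds collagen and TGF-β and inhibits the latter. Aspn (ENSRNOG00000015410) had 15.5, 5.50 and 20.8 CPM in young replicates 1, 2 and 3 and 134, 111 and 180 CPM in old replicates 1, 2 and 3. Every old culture held more than 5 times the CPM of any young culture. The means were 13.95 ± 7.78 CPM (SD of 3 libraries) in young and 141 ± 35.2 CPM (SD of 3 libraries) in old, a 10.1-fold difference and a log2 fold change of 3.34 ± 0.50 (SE, edgeR adjusted p = 0.0557). DESeq2 gave an adjusted p of 1.95e-10, and its call was kept with each of the 6 libraries left out in turn. Without old replicate 1, edgeR also called Aspn (adjusted p = 0.0348). With any other library left out, edgeR did not call Aspn (adjusted p between 0.106 and 0.225).

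Ecm2 encodes a matrix protein with leucine-rich repeats close to those of decorin. Its counts were low and ranged from 34 to 68 in the young and from 166 to 328 in the old libraries. In CPM, Ecm2 (ENSRNOG00000031716) was at 0.753, 0.964 and 1.38 in young replicates 1, 2 and 3 and at 3.34, 5.94 and 6.12 in old replicates 1, 2 and 3. The groups did not overlap, and the replicates of each group lay within 1.84-fold of each other. Its log2 fold change was 2.31 ± 0.36 (SE, edgeR adjusted p = 0.0559 and 1.90e-07 from DESeq2). The DESeq2 call of Ecm2 was kept with each library left out, and edgeR called the gene without old replicate 1 (adjusted p = 0.0272). With any other library left out, edgeR did not call Ecm2 (adjusted p between 0.106 and 0.230).

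Decorin limits the lateral growth of collagen fibrils and binds TGF-β and several receptor tyrosine kinases. The largest fold change of the family was that of Dcn, and so was the largest spread. Dcn (ENSRNOG00000004554) had 19.9, 1.16 and 2.28 CPM in young replicates 1, 2 and 3 and 25.99, 411 and 119 CPM in old replicates 1, 2 and 3. Old replicate 1 was close to young replicate 1, while old replicates 2 and 3 were far above all young cultures. For Dcn the log2 fold change was 4.58 ± 1.46 (SE, edgeR adjusted p = 0.156). DESeq2 called Dcn with all libraries (adjusted p = 0.0185) but not without old replicate 2 (adjusted p = 0.202), old replicate 3 (0.0573), young replicate 2 (0.0652) or young replicate 3 (0.103). With each library left out, the edgeR log2 fold change lay between 3.23 and 6.76.

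Biglycan, the closest relative of decorin, took most of the SLRP counts in every library. Bgn (ENSRNOG00000055962) had 2562, 3385 and 3936 CPM in young replicates 1, 2 and 3 and 3964, 4283 and 5401 CPM in old replicates 1, 2 and 3. The groups did not overlap, but young replicate 3 and old replicate 1 were nearly equal. The log2 fold change of Bgn was 0.47 ± 0.23 (SE, edgeR adjusted p = 0.279 and 0.168 from DESeq2), and the gene was not called in any fit.

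Decorin and biglycan share collagen-binding functions, and the number of Dcn counts per 1000 Bgn counts follows the pair from library to library, independent of normalization. This ratio was 7.75, 0.344 and 0.579 in young replicates 1, 2 and 3 and 6.56, 96.0 and 21.98 in old replicates 1, 2 and 3. Young replicate 1 exceeded old replicate 1, so the groups overlapped. The ratio in old was 20.8 times that in young on the mean of the log2 values, a difference of 4.38 between −9.76 ± 2.41 in young and −5.38 ± 1.94 in old (mean ± SD of 3 libraries each, p = 0.2 from an exact two-sided permutation test, which with 3 against 3 libraries cannot go below 0.1). The difference was 3.38 without old replicate 2 and 5.75 without young replicate 1.

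Class II genes had overlapping groups without exception, and DESeq2 called none of the 4. Most genes of the whole table overlapped too, with 14.5% apart and higher in old and 14.7% apart and lower. DESeq2 called 2.3% of all genes higher and 3.38% lower. Lumican regulates fibril assembly and carries keratan sulfate in some tissues. Lum (ENSRNOG00000004610) had 101, 13.6 and 6.90 CPM in young replicates 1, 2 and 3 and 70.9, 255 and 165 CPM in old replicates 1, 2 and 3. Young replicate 1 lay above old replicate 1, and the other young cultures lay below all old cultures. The log2 fold change of Lum was 2.02 ± 1.04 (SE, edgeR adjusted p = 0.291), and without young replicate 1 it was 3.99, where DESeq2 called the gene (adjusted p = 9.75e-10) and edgeR did not.

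Fibromodulin competes with lumican for a site on collagen I. Fmod (ENSRNOG00000003183) had 46.0, 19.6 and 2.97 CPM in young replicates 1, 2 and 3 and 41.0, 49.5 and 43.8 CPM in old replicates 1, 2 and 3. The old cultures were within 1.21-fold of each other, whereas the young cultures spanned 15.5-fold, with young replicate 1 inside the old range. For Fmod the log2 fold change was 0.97 ± 0.81 (SE, edgeR adjusted p = 0.489). Without young replicate 1 it was 1.99, and DESeq2 called Fmod (adjusted p = 0.0496).

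Omd encodes osteomodulin, a keratan sulfate proteoglycan known from mineralized tissue. Omd (ENSRNOG00000039560) was near the lower end of detection, with 22, 36 and 104 counts in young replicates 1, 2 and 3 and 130, 98 and 280 counts in old replicates 1, 2 and 3. In CPM young replicate 3, at 2.12, was above old replicate 2, at 1.89. The log2 fold change of Omd was 1.60 ± 0.68 (SE, edgeR adjusted p = 0.225), and DESeq2 called it only without young replicate 3, where the log2 fold change was 2.57.

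Prelp was the 1 gene of the family with a negative log2 fold change. Its product links basement membranes to collagen and binds heparan sulfate. Prelp (ENSRNOG00000003120) had 94.2, 109 and 34.4 CPM in young replicates 1, 2 and 3 and 62.4, 50.6 and 88.7 CPM in old replicates 1, 2 and 3. All old values lay within the young range. The log2 fold change was −0.24 ± 0.43 (SE, edgeR adjusted p = 0.763) and was 0.067 without young replicate 2, so no direction can be given for Prelp.

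Ogn, of class III, encodes a small proteoglycan that affects collagen fibril width and is abundant in vessel walls. Ogn (ENSRNOG00000029792) had 84.7, 57.6 and 174 CPM in young replicates 1, 2 and 3 and 258, 191 and 907 CPM in old replicates 1, 2 and 3. The groups did not overlap, with young replicate 3 just below old replicate 2 and with old replicate 3 far above the others. For Ogn the log2 fold change was 2.10 ± 0.71 (SE, edgeR adjusted p = 0.168 and 0.0126 from DESeq2). Without old replicate 3 it was 1.09, and the DESeq2 call of Ogn was lost there (adjusted p = 0.178), without young replicate 1 (0.289) and without young replicate 2 (0.121).

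**Figure D2:**
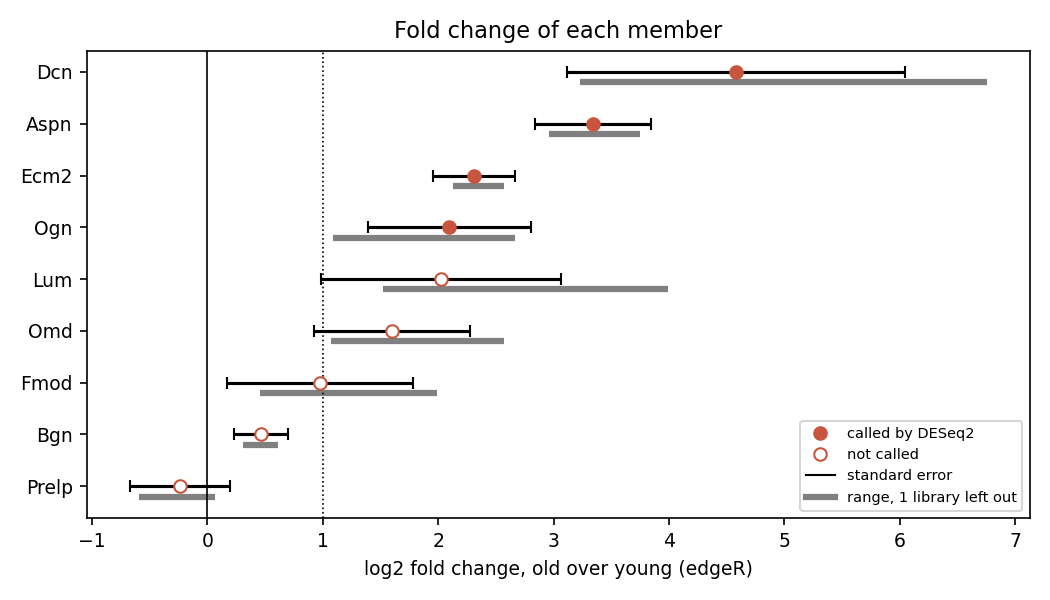
Log2 fold change of each SLRP, old over young, from edgeR, with the standard error in black and the range over fits with 1 library left out in grey. Filled points were called by DESeq2, the dotted line marks a log2 fold change of 1, and Aspn and Ecm2 have the narrowest grey bars among the 4 called genes.

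Compared class by class, summed CPM moved by different amounts. Class I was summed to 2599, 3393 and 3961 CPM in young replicates 1, 2 and 3 and to 4127, 4811 and 5706 CPM in old replicates 1, 2 and 3, of which Bgn was the greater part. Leaving Bgn out, the other class I genes summed to between 7.63 and 36.2 CPM in young and between 163 and 528 CPM in old, a ratio of means of 14.6. Class II summed to 241, 143 and 46.3 CPM in young and 177, 357 and 302 CPM in old, so that young replicate 1 lay above old replicate 1, and the ratio of means was 1.94. For class III, which is Ogn alone, the ratio was 4.28. All 9 SLRPs took 0.298% to 0.400% of the counts of a young library and 0.452% to 0.685% of those of an old library. Bgn supplied 87.6% to 94.2% of the SLRP counts in young and 78.1% to 86.9% in old. Sums over chosen genes were not tested.

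SLRP genes lie in groups along the genome, and cultures of the same age ranked differently for different groups. In the RefSeq annotation of GRCr8, Ogn, Omd, Aspn and Ecm2 lie in this order on chromosome 17 with 1 other coding entry (Rpl6-ps6) before Ecm2, Dcn is next to Lum on chromosome 7 and Prelp is next to Fmod on chromosome 13, while Bgn lies alone on chromosome X. Young replicate 3 was the highest young culture for each of the 4 genes on chromosome 17, and old replicate 3 was the highest old culture for each of them. Dcn and Lum were instead highest in young replicate 1 and old replicate 2 and lowest among the old cultures in old replicate 1. Prelp and Fmod were both lowest, among the young cultures, in young replicate 3, but their highest young, highest old and lowest old cultures all differed. Bgn ranked young replicate 3 and old replicate 3 highest, as the genes on chromosome 17 did.

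**Figure D3:**
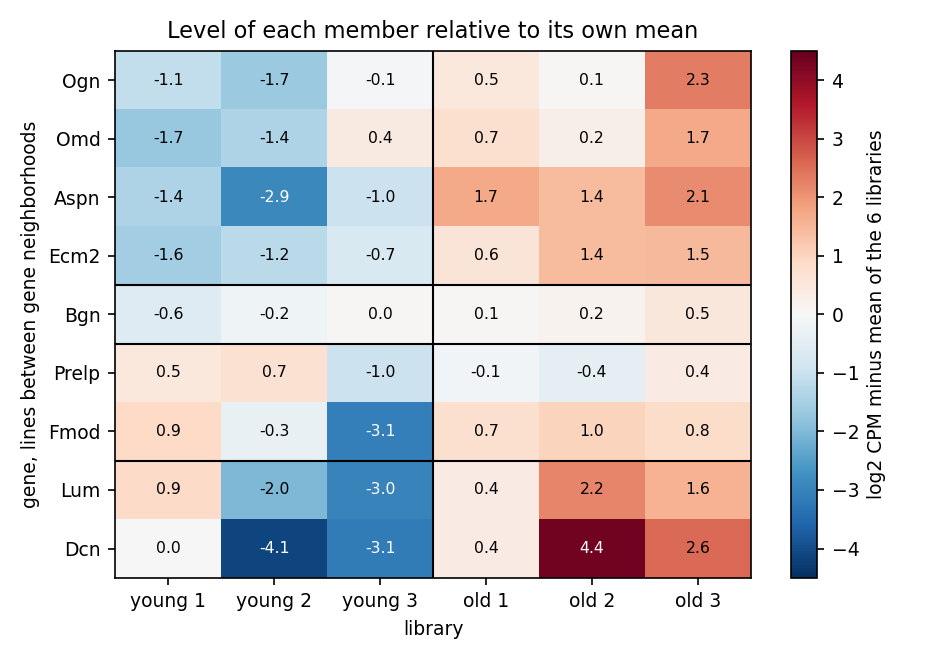
Log2 CPM of each SLRP in each library minus the mean of that gene over the 6 libraries, with horizontal lines between groups of neighboring genes and a vertical line between ages. Ogn, Omd, Aspn and Ecm2 share young replicate 3 and old replicate 3 as their highest cultures, while Dcn and Lum share young replicate 1 and old replicate 2.

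The deviation of each log2 CPM value from the mean of its age group was then compared between genes over the 6 libraries. Among the 8 pairs of neighboring genes of the same group, Pearson's r of these deviations ran from 0.24 to 0.88 with a median of 0.69. Among the other 28 pairs it ran from −0.84 to 0.84 with a median of −0.24. Dcn and Lum had r = 0.88, Omd and Ogn 0.87 and Prelp and Fmod 0.81, while Fmod and Omd had r = −0.84. Pairs that are not neighbors also reached such values, with r = 0.84 for Bgn and Omd, 0.84 for Bgn and Ecm2, 0.82 for Lum and Fmod and 0.67 for Bgn and Ogn. Every pair was compared over the same 6 libraries, the pairs share genes, and no test was made.

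The promoters of the 4 neighbors on chromosome 17 are printed because these genes shared their highest young and highest old culture and 3 of them (Aspn, Ecm2 and Ogn) were called by DESeq2. RefSeq sequences of the 250 bases before the annotated start are given 5′ to 3′ on the strand of the gene, from GRCr8, which is not the assembly the reads were aligned to. Capitals mark matches on either strand to any of the motifs searched. These were the TATA box as TATAAA, the core bound by TEAD factors as GGAATG, the AP-1 site as TGANTCA, and by its name alone the CArG box bound by SRF.
Ogn, GRCr8 chr17:15258996-15259245, minus strand: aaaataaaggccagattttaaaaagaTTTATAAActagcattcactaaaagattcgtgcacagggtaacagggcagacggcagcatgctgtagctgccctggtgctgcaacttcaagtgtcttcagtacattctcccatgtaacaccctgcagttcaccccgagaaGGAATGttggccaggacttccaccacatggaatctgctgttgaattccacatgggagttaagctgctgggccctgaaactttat
Omd, GRCr8 chr17:15274871-15275120, minus strand: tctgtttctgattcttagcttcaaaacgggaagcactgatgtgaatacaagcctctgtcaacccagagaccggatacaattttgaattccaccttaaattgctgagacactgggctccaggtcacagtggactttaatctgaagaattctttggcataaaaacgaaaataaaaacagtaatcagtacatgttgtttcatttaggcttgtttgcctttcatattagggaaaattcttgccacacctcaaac
Aspn, GRCr8 chr17:15310470-15310719, minus strand: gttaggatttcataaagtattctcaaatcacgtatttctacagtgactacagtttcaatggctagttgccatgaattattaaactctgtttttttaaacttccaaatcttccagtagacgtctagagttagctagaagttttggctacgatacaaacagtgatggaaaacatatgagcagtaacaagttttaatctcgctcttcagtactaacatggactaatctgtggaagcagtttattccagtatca
Ecm2, GRCr8 chr17:15358856-15359105, minus strand: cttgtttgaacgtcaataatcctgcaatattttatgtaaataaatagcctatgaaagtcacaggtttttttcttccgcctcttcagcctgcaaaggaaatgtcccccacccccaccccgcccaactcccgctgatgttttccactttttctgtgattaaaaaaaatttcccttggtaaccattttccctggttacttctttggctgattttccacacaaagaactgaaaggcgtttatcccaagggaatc

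Ogn held TATAAA on both strands in overlapping positions, 217 to 224 bases before the start. It also held 1 GGAATG, 79 to 84 bases before the start, and the other 3 promoters held none of the 4 motifs. Whether any match is used was not tested. Over 33469 rat promoters of the same length, 12.9% held TATAAA, 12.1% GGAATG, 6.34% TGANTCA and 1.5% the CArG box. The G+C content of the promoters was 46% for Ogn, 38.8% for Omd, 34.8% for Aspn and 41.6% for Ecm2. The promoters of Lum and Fmod, of the same table, also held none of the motifs.

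The 4 genes on chromosome 17 lie within the span of Cenpp, a centromere protein gene. No source used here gives the strand setting of the counting, and whether reads were shared with Cenpp was not tested. Cenpp had 3.66, 2.66 and 5.05 CPM in young replicates 1, 2 and 3 and 3.36, 1.21 and 1.47 CPM in old replicates 1, 2 and 3, with a log2 fold change of −0.91 (adjusted p = 0.284 from edgeR). Ippk, the next gene after Ecm2, had a log2 fold change of 0.059 (edgeR adjusted p = 0.830). Btg2, the next gene after Fmod, had a log2 fold change of −1.43 (edgeR adjusted p = 0.227), with all old libraries below the young. Nol8, also looked at as a neighbor, had 0.27 (edgeR adjusted p = 0.159), with all old libraries above the young. Optc, the gene before Prelp, had 0.20 (edgeR adjusted p = 0.864), with overlapping groups. Epyc (epiphycan), a further SLRP, went from 0.949 ± 0.637 to 2.03 ± 0.712 CPM (mean ± SD of 3 libraries each, log2 fold change 1.10, edgeR adjusted p = 0.268), with overlapping groups.

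Of 8 further SLRPs, 6 were in the table, and Kera and Chadl had no row. DESeq2 called 1 of the 6 higher (background 2.3%), Nyx (nyctalopin). Nyx was at 1.52 ± 0.908 CPM in old against 0.432 ± 0.0875 CPM in young (mean ± SD of 3 libraries each) and had only 18 to 24 counts in the young libraries. Tsku (tsukushi), a secreted inhibitor of several growth factor pathways, had 49.9 ± 4.73 CPM in young and 72.5 ± 8.12 CPM in old (mean ± SD of 3 libraries each), with groups apart and a log2 fold change of 0.54 ± 0.12 (SE, edgeR adjusted p = 0.0942 and 0.00567 from DESeq2), below the fold threshold. Podnl1, the relative of podocan, had overlapping groups.

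Genes that build the sugar chains of SLRPs showed no common direction. Of 22 genes for chondroitin and dermatan sulfate synthesis, 11 had positive and 11 negative values, and their median log2 fold change was 0.015. DESeq2 called 1 of the 22 higher (background 2.3%) and 0 lower (background 3.38%). edgeR called 0, with 1 higher (background 11.2%) and 3 lower (background 11.5%) at an unadjusted p under 0.05. The called gene was Chst13, a chondroitin sulfotransferase at 0.291 ± 0.119 CPM in young and 1.42 ± 1.19 CPM in old (mean ± SD of 3 libraries each). Dse, the epimerase that turns chondroitin into dermatan sulfate, was at 207 ± 1.63 CPM in young and 197 ± 24.9 CPM in old (mean ± SD of 3 libraries each). Of 9 keratan sulfate genes in the table, 4 had positive and 5 negative values, with a median log2 fold change of −0.11. The old libraries all lay above the young in 1 (background 14.5%) and below in 3 (background 14.7%). Summed CPM of the 9 was 546 to 570 in young and 469 to 499 in old. DESeq2 called 2 of the 9 lower (background 3.38%) and 0 higher (background 2.3%). Both encode sulfotransferases. In the DESeq2 test Chst2 fell, from 109 ± 21.9 to 51.3 ± 9.34 CPM (mean ± SD of 3 libraries each, log2 fold change −1.09, adjusted p = 0.0645 from edgeR and 4.86e-05 from DESeq2), and Chst5 fell, from 5.06 ± 0.679 to 1.74 ± 0.728 CPM (mean ± SD of 3 libraries each).

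Proteases that cleave SLRPs moved both ways. Of the 8 in the table, 6 had a positive log2 fold change and 2 a negative one. DESeq2 called 3 higher (background 2.3%) and 2 lower (background 3.38%). edgeR called 0, with 3 higher (background 11.2%) and 2 lower (background 11.5%) at an unadjusted p under 0.05. Mmp2, which degrades several SLRPs, had 1156 ± 331 CPM in young and 3523 ± 1474 CPM in old, Mmp14, which activates Mmp2, had 454 ± 43.2 and 1095 ± 566 CPM, and the aggrecanase Adamts5 had 17.8 ± 10.9 and 88.1 ± 45.6 CPM (mean ± SD of 3 libraries each). Tll1, a tolloid protease of the kind that processes the biglycan propeptide, had 223 ± 69.6 CPM in young and 60.8 ± 55.1 CPM in old, and Mmp3 had 1.36 ± 0.859 and 0.379 ± 0.230 CPM (mean ± SD of 3 libraries each). Bmp1, the main biglycan-processing enzyme, had a log2 fold change of 0.29 and was not called.

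Collagen chains that SLRPs bind had a positive log2 fold change in 10 of 10 (background 52%), with a median of 0.75. DESeq2 called 2 of them higher (background 2.3%), and 4 of the 10 had groups apart (background 14.5%). Col5a1 and Col5a2 were nearly level, with log2 fold changes of 0.19 and 0.04. Col3a1 and Col14a1 were the called chains, with log2 fold changes of 1.31 and 2.43 (adjusted p = 0.111 and 0.0743 from edgeR). Col1a1, the main chain of the fibrils on which decorin, lumican and fibromodulin sit, had 17933 ± 3164 CPM in young and 30840 ± 1749 CPM in old (mean ± SD of 3 libraries each), with groups apart and a log2 fold change of 0.78. Of 16 receptors and growth factors in the table, 5 had a positive log2 fold change (background 52%) and 11 a negative one (background 48%). The median of the 16 was −0.34. The old libraries all lay above the young in 3 (background 14.5%) and below in 6 (background 14.7%). DESeq2 called 2 of the 16 higher (background 2.3%), Tlr4 (a receptor for soluble biglycan and decorin) and Tgfbr2. Their log2 fold changes were 1.14 and 1.19. It called 2 lower (background 3.38%), the ligands Tgfb2 and Tgfb3, at −2.47 and −2.37. edgeR called 0 genes of these lists, and the adjusted p of the 6 called by DESeq2 in this paragraph lay between 0.0600 and 0.111 in edgeR.

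**Figure D4:**
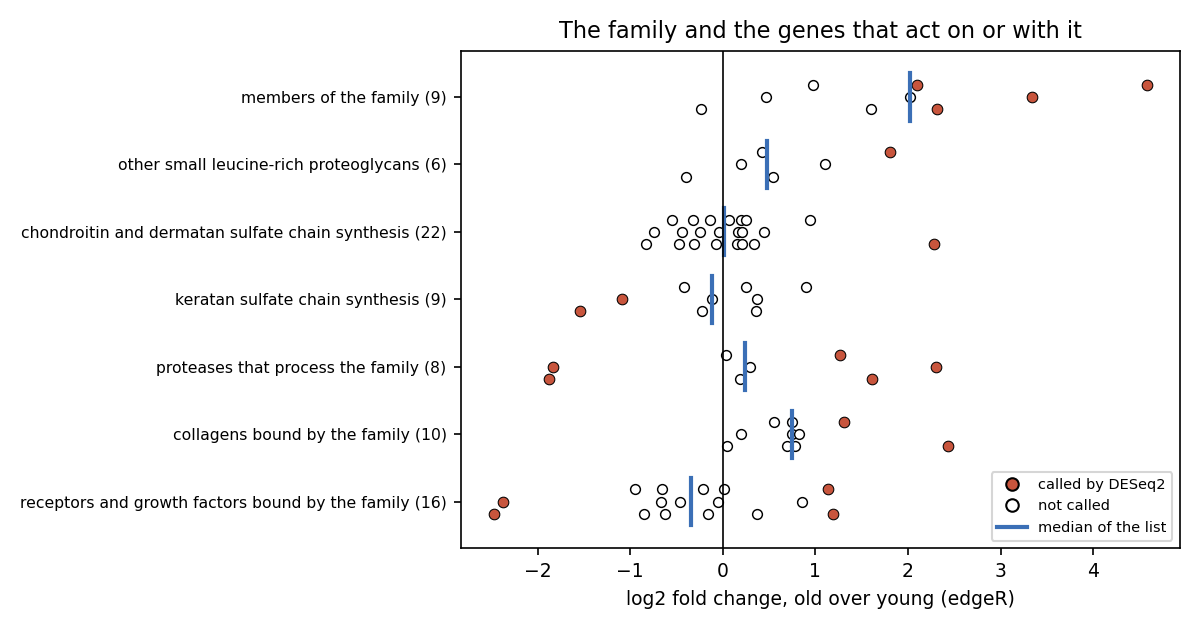
Each row shows the edgeR log2 fold change, old over young, of every gene in a list, with the number of genes in brackets, red for genes called by DESeq2 and a blue line at the median. The 9 SLRPs have a median of 2.02, the bound collagens 0.75 and the chondroitin and dermatan sulfate genes 0.015.

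Markers of other cell types were measured beside these results. Fewer or more cells of a type and less or more RNA per cell cannot be told apart in these libraries. All 9 smooth muscle markers had a negative log2 fold change (background 48%). DESeq2 called 7 of them lower (background 3.38%) and edgeR 0. In 8 of the 9 the old libraries all lay below the young (background 14.7%), and Des overlapped with a log2 fold change of −0.11. The summed level of the 9 markers was 11260 to 21373 CPM in young and 3457 to 5573 CPM in old. Of 10 fibroblast markers other than SLRPs, 9 were in the table and 7 had positive values, the median log2 fold change being 0.99, with sums of 1531 to 1686 CPM in young and 1294 to 1951 CPM in old. DESeq2 called 1 of them higher (background 2.3%), Clec3b, at 1.18 to 2.58 CPM in young and 11.7 to 23.9 CPM in old. Tcf21 had no row. Pdgfra, a defining fibroblast marker, had 307, 242 and 153 CPM in young replicates 1, 2 and 3 and 376, 635 and 381 CPM in old replicates 1, 2 and 3. Only Clec3b and Pdgfra had groups apart (2 of 9, background 14.5%). Mfap5 and Col8a1 had negative log2 fold changes, at −0.16 and −0.50, with overlapping groups. The part of fibroblasts in the SLRP differences was not tested. Defining endothelial (Cdh5), macrophage (Ptprc, Adgre1), adipocyte (Adipoq), Schwann cell (Sox10) and skeletal muscle (Myod1, Myog, Pax7) genes had no row in a table that lists genes with at least 10 counts in 3 libraries. The sums of the 6 endothelial and the 2 macrophage markers present overlapped between ages, at 35.1 to 45.2 against 32.9 to 44.1 CPM and 0.407 to 2.90 against 1.57 to 2.90 CPM. Tendon and cartilage markers, of a tissue rich in SLRPs, summed to 311 to 490.4 CPM in young and 167 to 209 CPM in old. The fall in this sum was that of Acan, at 268.5 ± 116 CPM in young and 11.1 ± 11.0 CPM in old (mean ± SD of 3 libraries each). Of the 7 markers, 3 had a positive and 4 a negative log2 fold change. DESeq2 called 1 of the 7 higher (Thbs4, background 2.3%) and 1 lower (Acan, background 3.38%). Sums of Schwann cell, pericyte and adipocyte markers overlapped, at 367 to 502 against 444 to 922 CPM, 901 to 1291 against 666 to 1510 CPM and 2.33 to 6.19 against 1.35 to 6.31 CPM. Those of the 4 skeletal muscle markers in the table, mostly Acta1 and Myh1, did not overlap, at 144 to 353 CPM in young and 34.1 to 55.8 CPM in old. Of these 4, 3 had a negative log2 fold change and Tnnt3 a positive one, at 0.92. Ckm and Mylpf had no row. DESeq2 also called lower 1 of 3 pericyte markers (background 3.38%), Cspg4 (320 ± 105 CPM in young and 121 ± 36.6 CPM in old). The log2 fold change was positive in 1 of these 3 and negative in 2. Of the 6 endothelial markers, 3 had a positive and 3 a negative log2 fold change. DESeq2 called 1 of the 6 lower (background 3.38%), Erg (4.25 ± 2.30 and 1.04 ± 0.752 CPM). It called 2 of the 4 skeletal muscle markers lower (background 3.38%), Acta1 (156 ± 92.8 and 13.7 ± 6.69 CPM) and Myh1 (95.2 ± 39.8 and 11.9 ± 13.9 CPM). These CPM values are mean ± SD of 3 libraries per age.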

How the data were processed

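The authors deposited raw counts, with no scaling between libraries. The study's methods and the submitters' processing notes state that reads were trimmed with Cutadapt 3.5 through Trim Galore 0.6.7, aligned to the rat RefSeq assembly Rnor_6.0 with STAR 2.7.10b and counted with featureCounts (Subread 2.0.8). The methods name a RefSeq annotation, while the deposited table carries Ensembl gene identifiers, and which gene models were counted is not settled by the sources used here. No source used here states how strand, multi-mapping reads or read mates were handled. Small counts (1 to 19) were even numbers in 68.7% to 71.1% of cases. The total gene counts of every library also exceeded the read depth that the paper states per sample. Mates may therefore have been counted singly, and low counts may carry more counting error than their size implies.

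SLRPs and the gene lists were chosen with earlier results of these data known, and all members in the table were named. Rows were matched by exact symbol, since Ecm2 is also an older name of Sparcl1. From the lists, genes called by DESeq2 were named first. All 14475 genes, 1518 of them without a symbol, were fitted with edgeR 4.0.16 under R 4.3.3 (TMM, quasi-likelihood F test, Benjamini-Hochberg adjustment over all genes, no covariates, young as reference). Standard errors were derived from the log2 fold change and its F statistic. DESeq2 1.42.0 (292 genes without an adjusted p) and limma-voom 3.58.1 were alternatives, beside other filters, normalizations, halved counts, a replicate block and each library left out. The fits were tested on simulated counts. Transcript lengths were not used here, so CPM and shares of counts are not comparable between genes as levels per length. Sequences came from RefSeq (GRCr8), which held promoters of 7 of the 10 genes. Genes neighboring the SLRPs, such as Cenpp, were added after their values were seen. P-values measure the spread between 3 cultures per group.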

Additional observations from a re-analysis of the deposited data

How the results depend on the processing

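With edgeR, 0 SLRPs were called higher in old, and the number was 4 with the DESeq2 Wald test (2.3% of all genes called higher), with DESeq2 without a limit on the fold change (5.71%) and with edgeR's likelihood ratio test (2.08%), and 2 (Aspn and Ecm2) at an adjusted p under 0.1 in edgeR (1.11%). With each library left out in turn it ranged from 0 to 2 in edgeR, being 2 without old replicate 1 (1.58% of all genes), and from 2 to 5 in DESeq2 (1.75% to 3.7% of all genes). No SLRP was called lower under any setting. The median log2 fold change of the SLRPs ranged from 1.09 (without old replicate 3) to 2.57 (without young replicate 3) in edgeR and from 1.08 to 2.57 in DESeq2, and stayed between 1.89 and 2.02 under the other alternatives with all libraries. The log2 fold change of Prelp changed sign without young replicate 2, to 0.067 in edgeR and 0.057 in DESeq2 (range −0.60 to 0.067 in edgeR with each library left out), and the cause was not tested. The other 8 SLRPs kept a positive log2 fold change under each of 21 alternatives. The old minus young difference in the log2 ratio of Dcn to Bgn stayed between 3.38 and 5.75, with exact p of 0.2 or 0.4. With a library left out, the exact p cannot go below 0.2, its value without old replicate 1 and without young replicate 1.

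The labels give only a replicate number, and no source used here states whether same-numbered young and old cultures were handled together. This was not tested. The deviations of same-numbered young and old libraries had correlations of 0.06, 0.31 and 0.29. With the number as a replicate block, 0 SLRPs were called by edgeR in either direction, and their median log2 fold change was 1.90.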

Other observations

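For the 3 SLRPs with the highest mean CPM, which is not corrected for transcript length, the genes outside the family with the most similar pattern were listed by Pearson's r of log2 CPM over the 6 libraries, among 8840 genes with a mean of at least 10 CPM. The top gene was Evc2 for Bgn (r = 0.99), Sema5a for Ogn (r = 0.99) and Gtf3c6 for Lum (r = 0.996). Sema5a, a guidance protein of the semaphorin family, had 8.77, 9.08 and 15.2 CPM in young replicates 1, 2 and 3 and 17.8, 15.3 and 43.4 CPM in old replicates 1, 2 and 3, with old replicate 3 far above the others as for Ogn. Gtf3c6 had 15.3 to 20.9 CPM over all libraries, a far narrower range than that of Lum. These values of r describe 6 libraries, and no test was made.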
